A study of Mus musculus with 4 samples.

Results

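The 57 genes described here encode the machinery of mitosis: condensin and other chromosome-condensing proteins, the cyclins and kinases that drive entry into mitosis, the kinetochore, the spindle and its motors, and the proteins that cut the cell apart at the end. They were taken by name from the 24087 genes of the deposited table, with a minimum of 1 FPKM (fragments relative to gene length and library size) in at least 2 of the 4 libraries. All 57 passed, and 11399 genes in all did. The genes were chosen by name with the KO and CTRL values of these libraries already known, so their counts describe the list and are not independent evidence about it. All 57 were at 1 FPKM or more in every library, so no gene entered through KO alone. The member nearest the minimum was Anln at 1.27 FPKM in CTRL 2, and no listed gene lay below it.

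Treg cells were sorted as CD3+CD4+YFP+ from the spleen of C57BL/6 mice at steady state. KO mice were Foxp3Cre-YFPSetd2f/f and CTRL mice were littermates of the genotype Foxp3Cre-YFPSetd2f/+, so both carry Cre and YFP expressed from the Foxp3 locus, which is active in Treg cells, and CTRL mice carry 1 floxed Setd2 allele themselves. Setd2 encodes the methyltransferase that trimethylates lysine 36 of histone H3. There were 2 libraries per genotype, each from cells pooled from 2 mice, so p-values cover the spread between 2 pools. RNA was enriched with oligo(dT) and read as pairs of 150 bp.

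When a cell divides, CDK1 bound to cyclin B triggers the condensation of chromosomes, the breakdown of the nuclear envelope and the assembly of a spindle of microtubules. Kinetochores, built on centromeres marked by the histone variant CENP-A, attach each chromatid to the spindle, and the spindle checkpoint holds back the anaphase-promoting complex until every kinetochore is attached. The complex then marks securin and cyclin B for destruction, separase opens the cohesin rings, and the central spindle directs the cleavage furrow. Transcripts of these genes are made mainly in the G2 and M phases, so in a population of cells their level follows the share of cells in those phases as well as the RNA per cell, and in bulk RNA the share of cells of a kind and the amount of RNA in each cannot be told apart.

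The libraries rested on at least 29774533 to 32433849 reads each, recovered from whole-number steps of the FPKM values. CTRL 1 had 19100 genes above 0, compared with 15913 to 16410 in the other libraries. Foxp3 (112 to 140 FPKM), Il2ra, Ctla4 and Cd3e were high in all 4 libraries. Setd2 itself was at 23.4 and 25.3 FPKM in CTRL and 21.3 and 19.5 FPKM in KO. Its log2 fold change was -0.24 with an adjusted p of 0.0970 (limma, Benjamini-Hochberg), and the floxed exons were not read separately.

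Most mitosis genes were higher in KO than in CTRL Treg cells. Both KO libraries lay above both CTRL libraries for 55 of the 57 genes (96.5%), an arrangement found in 29.0% of all genes tested. By limma on log2(FPKM + 1), with Benjamini-Hochberg adjustment of p across the tested genes, 27 of the 57 (47.4%) rose at an adjusted p under 0.05, beside 5.10% of all genes, and 1, Smc4, fell (1.75%), beside 4.65% of all genes. Unadjusted, 53 were higher and 1 lower at p under 0.05 by limma, beside 1855 higher and 2099 lower of the 11399 genes tested. Of the 29 genes without a call, 21 were higher with an adjusted p between 0.05 and 0.1, beside 824 of all genes tested. The median log2 fold change was 0.70, compared with -0.02 over all genes tested, and values ran from -0.40 for Smc4 to 1.12 for Aurka. As a fold between mean FPKM values the median was 1.69, and 8 genes reached 2-fold. With any 1 library left out, which leaves 1 library in a group, none of the genes kept a call by limma. The log2 fold change was above 0 for 55 or 56 of the 57 genes in each of these fits.

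**Figure D1:**
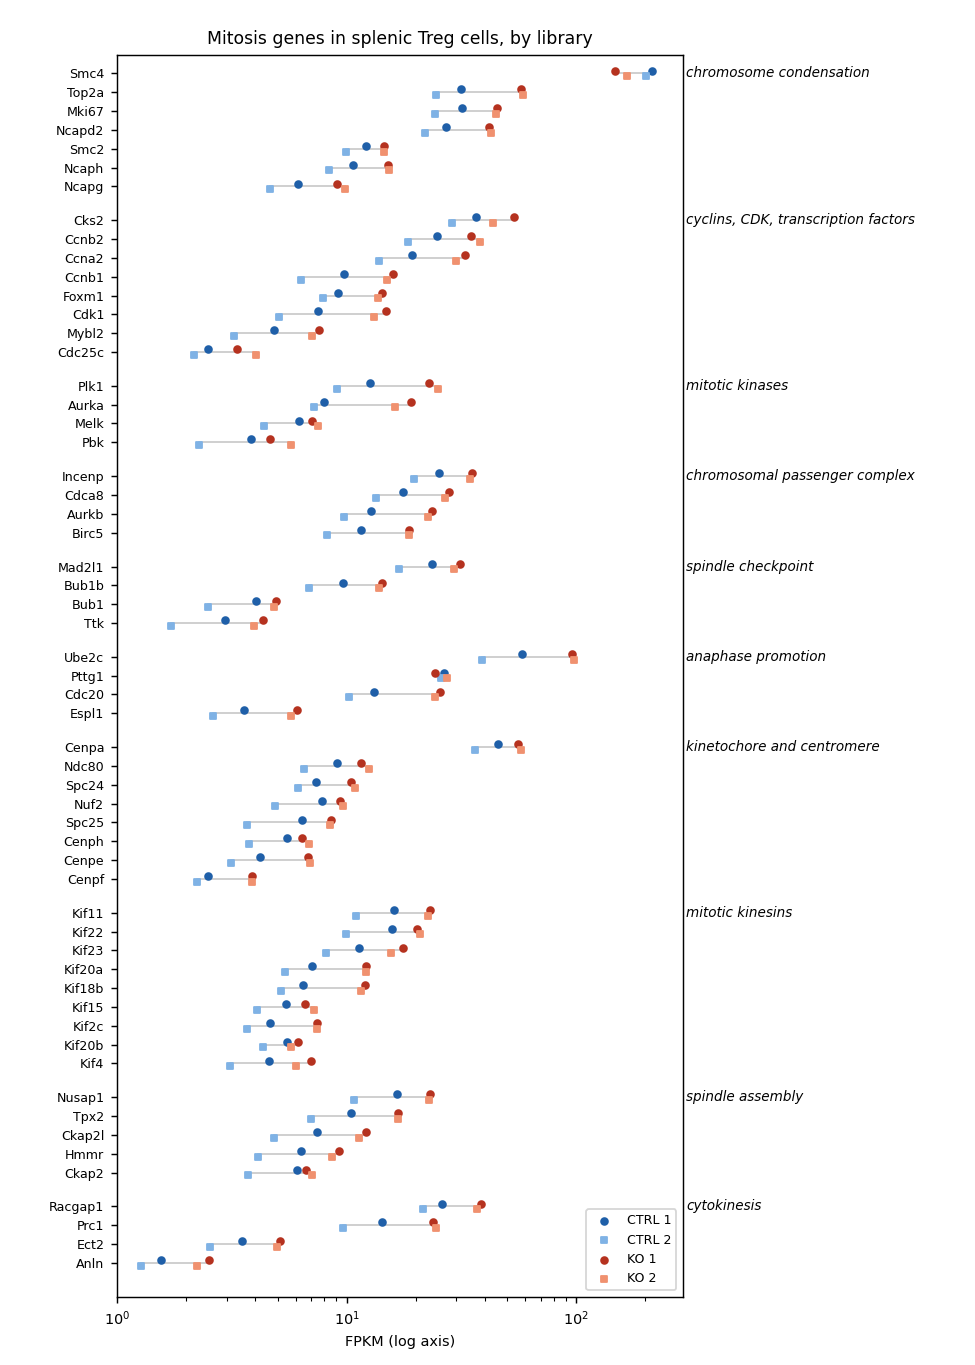
FPKM (log axis) of each of the 57 mitosis genes in the 4 libraries, ordered within each role by mean level; circles are replicate 1, squares replicate 2, blue CTRL and red KO, and a grey line joins the lowest and the highest library. The red points stand to the right of both blue points for 55 genes, and Smc4 and Pttg1 are the exceptions.

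The CTRL libraries differed from each other in these genes. CTRL 1 was above CTRL 2 for 57 of the 57 genes, with a median difference of 0.374 (log2), compared with 53.4% of all genes tested and a median of 0.011. KO 1 was above KO 2 for 33 of the 57, with a median difference of 0.006. CTRL 2 was the lowest library for 55 genes. The standard error of the fold change accordingly had a median of 0.144 for the mitosis genes and 0.087 for all genes. The gap between the lower KO and the higher CTRL library was smaller than the fold between means, with a median ratio of 1.42 and a range from 1.04 to 2.05 over the 55 genes. The median log2 fold change was 0.48 without CTRL 2 and 0.91 without CTRL 1.

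Summed over the 57 genes, CTRL 1 and CTRL 2 reached 943 and 748 FPKM and KO 1 and KO 2 reached 1236 and 1242 FPKM, a fold of 1.46 between the means. Both KO sums lay above both CTRL sums. Smc4 alone made up much of the sum, and without it (a choice made after its values were seen) the sums were 730, 546, 1087 and 1074, a fold of 1.69. Genes with a call were the more abundant ones, with a median level of 15.7 FPKM compared with 7.09 FPKM for those without. The genes lie on 18 chromosomes.

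Promoter sequences are shown because genes of this kind are known to share 2 short elements close to the start site, the cell-cycle genes homology region (CHR) and the CCAAT box. The CHR is bound by the MuvB complexes, which repress these genes in resting cells and activate them in G2, and the CCAAT box is bound by NF-Y. RefSeq windows (GRCm38.p6, 250 bases before to 50 after the start) were matched by symbol for 47 of the 57 genes, in 49 windows. Aurkb, Ccna2, Cdc25c, Foxm1, Incenp, Kif20a, Pbk, Smc4, Spc24 and Tpx2 had no window. The last 100 bases before the start are printed as examples for 5 genes whose stretch holds a CHR, which rank 3, 4, 5, 15 and 17 by log2 fold change among the 57, with capitals for the CHR (TTTGAA or, read on the other strand, TTCAAA) and for the CCAAT box (CCAAT or ATTGG).
Cdk1 (chr10:69352913-69353012, minus strand): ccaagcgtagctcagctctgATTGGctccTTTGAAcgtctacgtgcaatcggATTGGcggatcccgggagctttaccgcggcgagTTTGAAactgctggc
Cdc20 (chr4:118437344-118437443, minus strand): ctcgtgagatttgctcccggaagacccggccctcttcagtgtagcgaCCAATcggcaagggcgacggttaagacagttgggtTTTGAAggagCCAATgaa
Top2a (chr11:99024190-99024289, minus strand): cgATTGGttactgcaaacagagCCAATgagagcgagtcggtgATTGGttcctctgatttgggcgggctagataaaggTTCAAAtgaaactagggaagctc
Ckap2l (chr2:129297213-129297312, minus strand): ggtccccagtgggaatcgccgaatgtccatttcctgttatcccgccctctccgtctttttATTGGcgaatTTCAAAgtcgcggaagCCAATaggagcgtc
Espl1 (chr15:102296193-102296292, plus strand): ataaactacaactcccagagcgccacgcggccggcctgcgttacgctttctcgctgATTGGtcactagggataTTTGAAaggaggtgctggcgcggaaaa

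In each of these 5 stretches a CHR starts within 40 bases of the start site, at -15 in Cdk1, -18 in Cdc20, -23 in Top2a, -30 in Ckap2l and -27 in Espl1. Cdk1 holds a further CHR at -71. Ube2c and Prc1, which rank 6 and 7, hold a CHR too, at -29 in Ube2c and at -5 and -30 from the start sites of Prc1. These stretches are not printed. That of Ube2c runs into annotated untranslated sequence, and the CHR of the first Prc1 window crosses its start site. The last bases of the printed Cdk1, Cdc20 and Espl1 stretches lie within the gene too, as GENCODE vM21 draws it. Over the windows of all the mitosis genes, 36 of 49 (73.5%) held a CHR on either strand, compared with 17.9% of the 32851 windows of all genes. A CCAAT box was found in 73.5% as well, compared with 37.4%, and both motifs in 63.3%, compared with 7.0%. A CHR starting within 40 bases of the start site, a width chosen after the positions were seen, was present in 65.3% of the windows, compared with 4.2% of all windows. These are matches of letters in a fixed window, and a CHR and a CCAAT box can share no more than 1 end base.

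**Figure D2:**
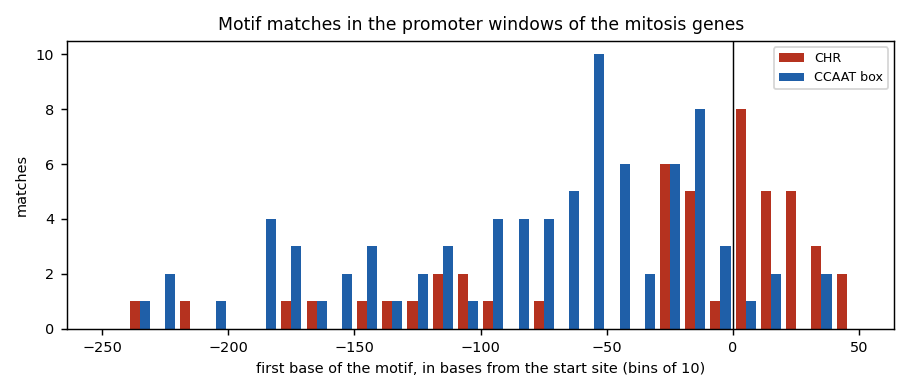
Number of CHR (red) and CCAAT box (blue) matches in the 49 promoter windows of the mitosis genes by distance of the motif's first base from the RefSeq start site, in bins of 10 bases; negative values lie before the start. CHR matches gather within 40 bases on either side of the start, and CCAAT boxes gather before it.

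The 34 genes with a CHR in their window had a median log2 fold change of 0.71 (range 0.24 to 1.12), and 17 of them rose. This count and those below stand beside 5.10% of all genes tested. The 13 genes with a window but no CHR had a median of 0.58 (range -0.02 to 0.89), and 3 rose. The difference between genes with and without a CHR was not tested. The 10 genes with no window had a median of 0.64 (range -0.40 to 0.99), and 7 rose. Neither motif was found in the windows of 8 genes, Birc5, Mad2l1, Melk, Mybl2, Ncaph, Nuf2, Nusap1 and Pttg1. Of these Birc5 and Ncaph rose, and Pttg1 had the lowest log2 fold change.

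Chromosome condensation gave both the highest levels and the only call in the other direction. Of 7 genes, 5 rose and 1 fell. The counts of this and each later role stand beside the 5.10% of all genes tested that rose and the 4.65% that fell. Top2a, the topoisomerase that untangles sister chromatids, was at 31.4 and 24.5 FPKM in CTRL and 57.6 and 58.5 FPKM in KO (log2 fold change 1.04, standard error 0.121, adjusted p 0.0346). Mki67, whose product Ki-67 coats mitotic chromosomes and is widely used as a proliferation marker, was at 31.8 and 24.3 FPKM in CTRL and 45.1 and 44.7 FPKM in KO (log2 fold change 0.67, standard error 0.129, adjusted p 0.0433). For both genes the KO libraries were nearly equal and well above the higher CTRL library. Ncapd2, Ncapg and Ncaph, the non-SMC subunits of condensin I, rose by 0.76, 0.71 and 0.63 on the log2 scale, with adjusted p of 0.0351, 0.0424 and 0.0423.

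Smc4 and Smc2 are the paired ATPase arms of condensin. Smc4 (ENSMUSG00000034349, GRCm38 chr3:69004738-69034623) was the most abundant of the 57 genes, at 213 and 202 FPKM in CTRL and 148 and 167 FPKM in KO, and fell by 0.40 on the log2 scale (standard error 0.0772, adjusted p 0.0441). Smc2 was at 12.2 and 9.94 FPKM in CTRL and 14.5 FPKM in both KO libraries, a log2 fold change of 0.37 with an adjusted p of 0.0820. The ratio of Smc4 to Smc2, both per length and compared after their values were seen, was 17.5 and 20.3 in CTRL and 10.2 and 11.5 in KO. The groups did not overlap in this ratio. Smc4 lost its call under several settings, including removal of the trend with exon length, and stayed lower in KO in each of them. No annotated exon of another gene overlaps those of Smc4 in GENCODE vM21.

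Of the 8 cyclins, CDK subunits and transcription factors, 4 rose and both KO libraries exceeded both CTRL libraries in all 8. Cdk1, the kinase that drives entry into mitosis, was at 7.51 and 5.08 FPKM in CTRL and 14.8 and 13.2 FPKM in KO (log2 fold change 1.06, standard error 0.174, adjusted p 0.0382). Ccna2, which encodes cyclin A2, was at 19.2 and 13.9 FPKM in CTRL and 32.7 and 29.9 FPKM in KO (log2 fold change 0.90, standard error 0.154, adjusted p 0.0399). For both genes CTRL 2 was the lowest library and both KO libraries stood well above CTRL 1. Of the B cyclins that activate Cdk1, Ccnb2 was at 24.8 and 18.5 FPKM in CTRL and 34.7 and 38.0 FPKM in KO (log2 fold change 0.73, standard error 0.144, adjusted p 0.0447). Ccnb1 had the greater log2 fold change of 0.89 but an adjusted p of 0.0509, from 9.77 and 6.30 FPKM in CTRL to 15.9 and 15.0 FPKM in KO.

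Cks2, a small subunit that binds CDK1 and helps it find its substrates, was at 36.5 and 28.7 FPKM in CTRL and 53.4 and 43.4 FPKM in KO (log2 fold change 0.56, standard error 0.149, adjusted p 0.0726). KO 1 stood above the rest for this gene, and 23.8% of its transcript stretches of 100 bases occur in another gene, so its value is uncertain. The same share was 14.9% for Ccnb1 and 15.3% for Mybl2. Foxm1, the transcription factor that activates the G2 genes, rose by 0.65 (adjusted p 0.0351), and Mybl2, which joins MuvB to start their activation, had a log2 fold change of 0.74 (adjusted p 0.0543). Cdc25c, the phosphatase that switches Cdk1 on, was low at 2.17 to 4.04 FPKM, and its log2 fold change was 0.49 (adjusted p 0.0659).

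Among the 4 mitotic kinases, Aurka and Plk1 rose, and they had the greatest log2 fold changes of all 57 genes on the log2(FPKM + 1) scale. By the fold between mean FPKM values, Cdk1 (2.22) came before Plk1 (2.19). Aurka (ENSMUSG00000027496, GRCm38 chr2:172356190-172370535), which matures the spindle poles, was at 7.95 and 7.21 FPKM in CTRL and 19.1 and 16.3 FPKM in KO, a fold of 2.34 between means and a log2 fold change of 1.12 (standard error 0.102, adjusted p 0.0299). Its lower KO library was 2.05 times its higher CTRL library, the widest gap of the set. Plk1, which acts from mitotic entry to cytokinesis, was at 12.7 and 9.10 FPKM in CTRL and 22.8 and 25.1 FPKM in KO (log2 fold change 1.08, standard error 0.158, adjusted p 0.0351). Melk was at 6.22 and 4.35 FPKM in CTRL and 7.10 and 7.49 FPKM in KO (log2 fold change 0.42, standard error 0.157, adjusted p 0.135), and Pbk had a log2 fold change of 0.63 (adjusted p 0.111). In Melk the step from CTRL 1 to either KO library was smaller than the step between the CTRL libraries.

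**Figure D3:**
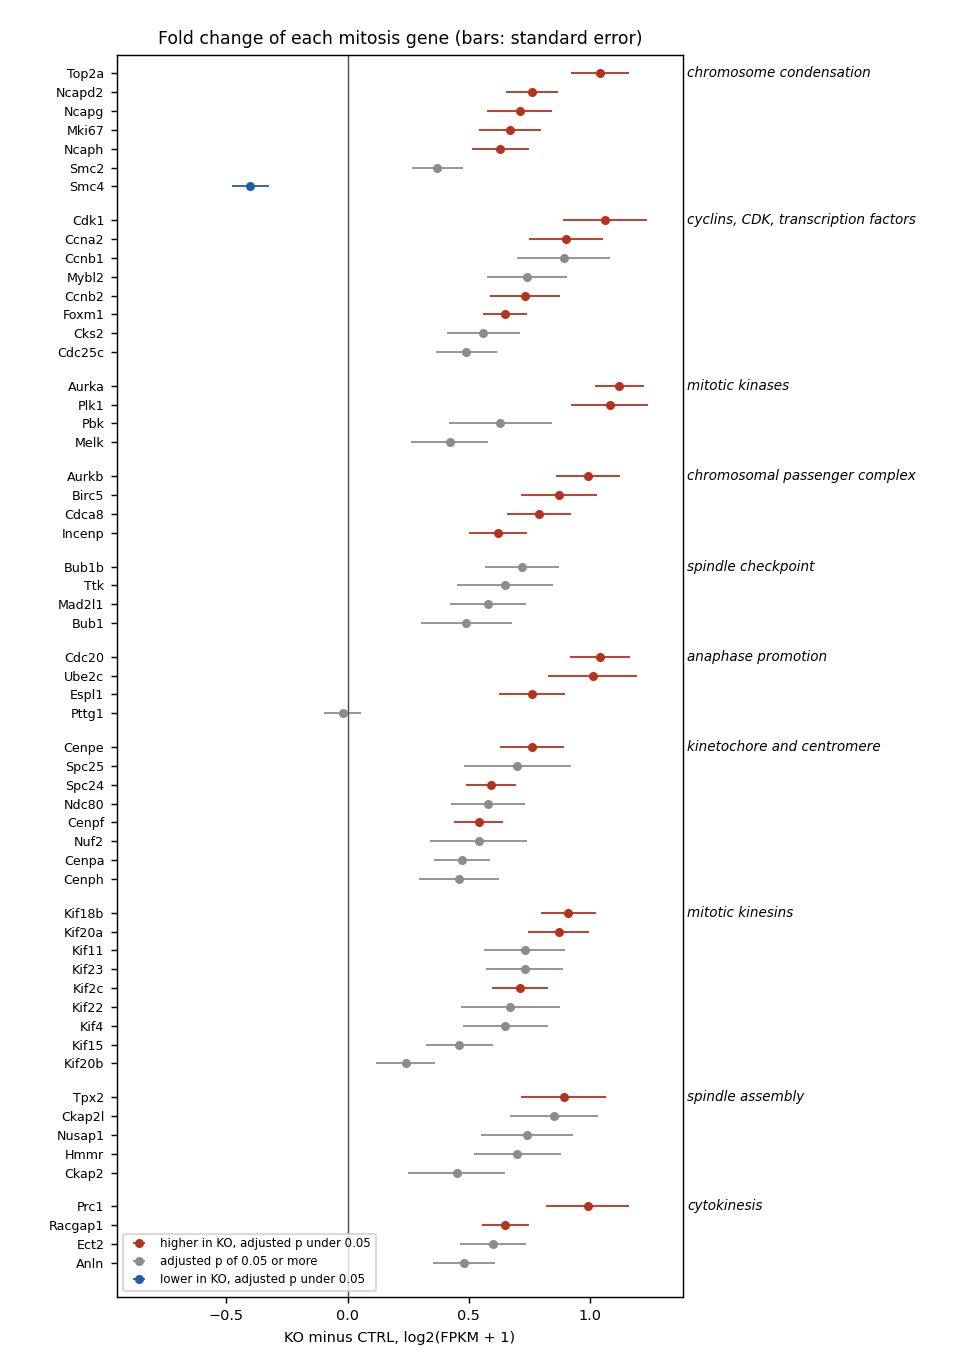
Log2 fold change, KO minus CTRL on the log2(FPKM + 1) scale, of each of the 57 mitosis genes by role; points are limma estimates from 2 libraries per genotype, bars their standard errors, red marks genes higher and blue lower at an adjusted p under 0.05, and grey the rest. Aurka has the highest value at 1.12, Smc4 the lowest at -0.40, and Pttg1 stands at -0.02.

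The chromosomal passenger complex was the one role in which every member rose. Its kinase Aurkb, which corrects faulty attachments of chromosomes, was at 12.8 and 9.69 FPKM in CTRL and 23.5 and 22.6 FPKM in KO (log2 fold change 0.99, standard error 0.131, adjusted p 0.0351). Cdca8, which encodes borealin, was at 17.6 and 13.4 FPKM in CTRL and 27.9 and 26.9 FPKM in KO (log2 fold change 0.79, standard error 0.132, adjusted p 0.0386). Incenp, the scaffold of the complex, was at 25.2 and 19.7 FPKM in CTRL and 35.0 and 34.6 FPKM in KO (log2 fold change 0.62, standard error 0.121, adjusted p 0.0442). Birc5, which encodes survivin, rose by 0.87 (adjusted p 0.0408). All 4 had a small spread between the KO libraries and a wider one between the CTRL libraries.

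None of the 4 spindle checkpoint genes passed the threshold by limma, with adjusted p from 0.0512 to 0.138, although all 4 had both KO libraries above both CTRL libraries. Mad2l1, which encodes the checkpoint protein MAD2, was at 23.5 and 16.9 FPKM in CTRL and 31.2 and 29.4 FPKM in KO (log2 fold change 0.58, standard error 0.156, adjusted p 0.0736). Bub1b, which encodes BUBR1, was at 9.65 and 6.86 FPKM in CTRL and 14.3 and 13.8 FPKM in KO (log2 fold change 0.72, standard error 0.153, adjusted p 0.0512). Bub1, a kinase that recruits the other checkpoint proteins to kinetochores, was at 4.01 and 2.48 FPKM in CTRL and 4.92 and 4.81 FPKM in KO (log2 fold change 0.49, standard error 0.187, adjusted p 0.138). In Bub1 the step from CTRL 1 to either KO library was smaller than the step between the CTRL libraries. The median of this group, 0.61, lay close to those of cytokinesis (0.62) and of chromosome condensation (0.67). Whether roles differ from each other was not tested.

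Of the 4 genes of anaphase promotion, 3 rose. Cdc20, the coactivator of the anaphase-promoting complex that the checkpoint holds back, was at 13.2 and 10.2 FPKM in CTRL and 25.5 and 24.3 FPKM in KO (log2 fold change 1.04, standard error 0.123, adjusted p 0.0346). Ube2c, the ubiquitin-conjugating enzyme that works with the complex, was at 57.9 and 38.9 FPKM in CTRL and 95.8 and 97.3 FPKM in KO (log2 fold change 1.01, standard error 0.183, adjusted p 0.0415). Both were close to double in KO. Espl1, which encodes separase, rose by 0.76 (adjusted p 0.0405) from 3.56 and 2.63 FPKM to 6.07 and 5.74 FPKM. Pttg1 (ENSMUSG00000020415, GRCm38 chr11:43420250-43426251), which encodes securin, the inhibitor of separase, was at 26.5 and 25.8 FPKM in CTRL and 24.3 and 27.3 FPKM in KO. Its libraries overlapped, its log2 fold change was -0.02 (standard error 0.0755, adjusted p 0.879), and its sign changed to 0.0602 without KO 1 and to 0.00420 with median-ratio scaling.

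In the kinetochore and centromere group 3 of 8 genes rose. Cenpa, the histone variant of centromeres, was at 45.5 and 36.1 FPKM in CTRL and 56.0 and 57.3 FPKM in KO (log2 fold change 0.47, standard error 0.115, adjusted p 0.0621). Ndc80, the subunit that grips microtubules, was at 9.07 and 6.53 FPKM in CTRL and 11.5 and 12.5 FPKM in KO (log2 fold change 0.58, standard error 0.152, adjusted p 0.0700). Spc24, of the same 4-subunit complex, was at 7.37 and 6.14 FPKM in CTRL and 10.4 and 10.9 FPKM in KO (log2 fold change 0.59, standard error 0.102, adjusted p 0.0403). The log2 fold changes of the 4 subunits ran closely together, with 0.54 for Nuf2 and 0.70 for Spc25, and only Spc24, with the smallest standard error of them, passed the threshold. Cenpe, a kinetochore motor, and Cenpf, of the outer kinetochore, rose by 0.76 and 0.54 (adjusted p 0.0405 and 0.0424), and Cenph of the inner kinetochore had a log2 fold change of 0.46 (adjusted p 0.125).

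Of the 9 mitotic kinesins, 3 rose. Kif11, the motor that pushes spindle poles apart, was at 16.0 and 11.0 FPKM in CTRL and 23.0 and 22.5 FPKM in KO (log2 fold change 0.73, standard error 0.167, adjusted p 0.0558). Kif22, which pushes chromosome arms towards the equator, was at 15.8 and 9.93 FPKM in CTRL and 20.2 and 20.9 FPKM in KO (log2 fold change 0.67, standard error 0.204, adjusted p 0.0917). Kif23, the motor subunit of centralspindlin, was at 11.3 and 8.10 FPKM in CTRL and 17.6 and 15.6 FPKM in KO (log2 fold change 0.73, standard error 0.159, adjusted p 0.0516). In Kif22 the step from CTRL 1 to either KO library was smaller than the step between the CTRL libraries. These most abundant kinesins had both KO libraries above both CTRL libraries but did not pass. Those that did were Kif18b (0.91, adjusted p 0.0346) and Kif2c (0.71, adjusted p 0.0378), which act on microtubule ends, and Kif20a (0.87, adjusted p 0.0351), a motor of the central spindle. Of the exon bases of Kif20a, 29.3% overlap Cdc23 on the other strand, and the use of strand in counting was not given in the sources used here. Kif20b had the lowest value of the group, from 5.50 and 4.34 FPKM in CTRL to 6.16 and 5.74 FPKM in KO (log2 fold change 0.24, standard error 0.122, adjusted p 0.234). Kif4 and Kif15 had log2 fold changes of 0.65 and 0.46 (adjusted p 0.0733 and 0.0885), and 15.1% of the exon bases of Kif4 overlap Pdzd11 on the other strand.

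In the spindle assembly group Tpx2 alone rose among 5 genes. Tpx2, which activates Aurora A on the spindle, was at 10.4 and 6.99 FPKM in CTRL and 16.7 and 16.8 FPKM in KO (log2 fold change 0.89, standard error 0.175, adjusted p 0.0442). Nusap1, which bundles microtubules near chromosomes, was at 16.6 and 10.8 FPKM in CTRL and 23.1 and 22.9 FPKM in KO (log2 fold change 0.74, standard error 0.189, adjusted p 0.0676). Ckap2l was at 7.42 and 4.84 FPKM in CTRL and 12.1 and 11.3 FPKM in KO (log2 fold change 0.85, standard error 0.182, adjusted p 0.0510). The KO libraries of all 3 genes agreed closely and the CTRL libraries did not. Hmmr and Ckap2 had log2 fold changes of 0.70 and 0.45 (adjusted p 0.0684 and 0.186).

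In cytokinesis 2 of 4 genes rose. Racgap1, the partner of Kif23 in centralspindlin, was at 25.9 and 21.6 FPKM in CTRL and 38.3 and 36.9 FPKM in KO (log2 fold change 0.65, standard error 0.0977, adjusted p 0.0360). Prc1, which crosslinks the microtubules of the central spindle, was at 14.2 and 9.67 FPKM in CTRL and 23.8 and 24.6 FPKM in KO (log2 fold change 0.99, standard error 0.171, adjusted p 0.0402). Ect2, the exchange factor that switches on RhoA at the furrow, was at 3.49 and 2.55 FPKM in CTRL and 5.15 and 4.99 FPKM in KO (log2 fold change 0.60, standard error 0.137, adjusted p 0.0557). In all 3 genes the KO libraries lay above both CTRL libraries. Anln, the anillin scaffold of the contractile ring, was the least abundant, at 1.55 and 1.27 FPKM in CTRL and 2.51 and 2.22 FPKM in KO (adjusted p 0.0696). Of the exon bases of Prc1, 11.1% overlap Rccd1 on the other strand, and the same kind of overlap was 22.8% for Ube2c with Tnnc2, 13.4% for Ncapg with Lcorl and 12.5% for Ccna2 with Exosc9. Tnnc2 was at a mean of 0.42 FPKM.

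Further genes of cell division were read from lists chosen by function. Over all genes tested, 5.10% rose and 4.65% fell at an adjusted p under 0.05 by limma. Of 64 further mitosis genes 63 were tested, with Kif24 below the minimum, and 22 rose and 0 fell, with a median log2 fold change of 0.47. The most abundant were Stmn1, which destabilizes microtubules and rose by 0.57 (adjusted p 0.0394) from 77.4 and 66.1 FPKM to 102 and 112 FPKM, and the tubulin gene Tubb5 (log2 fold change 0.27, adjusted p 0.0615). The highest value was that of Fam83d, a spindle protein, at 2.05 and 2.03 FPKM in CTRL and 6.84 and 4.32 FPKM in KO, a rise of 1.09 on the log2 scale (adjusted p 0.0416), named after its values were seen. Among 25 replication genes, given for reference, 16 rose and 0 fell, with a median of 0.58. The most abundant of these were Pcna (0.24, adjusted p 0.109) and Mcm6 (0.55, adjusted p 0.0351).

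**Figure D4:**
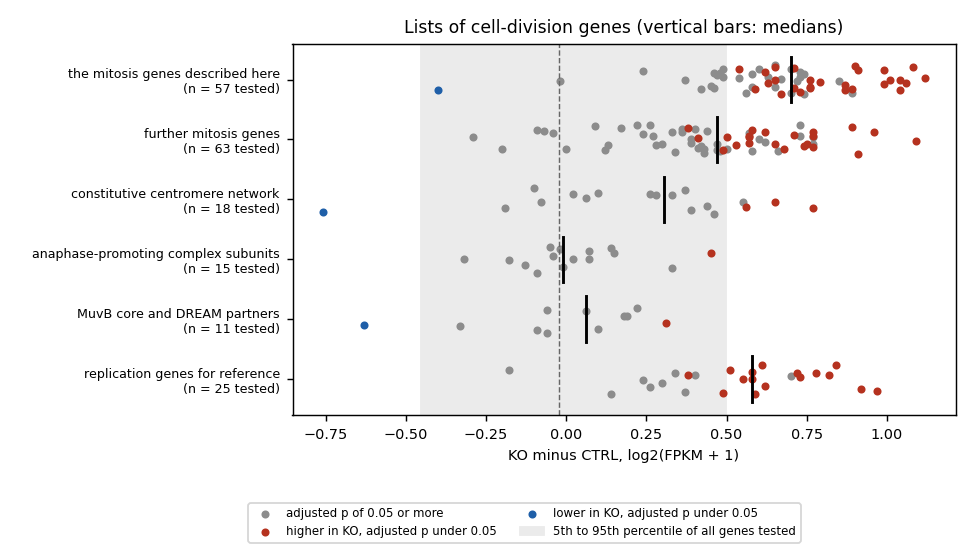
Log2 fold change, KO minus CTRL on the log2(FPKM + 1) scale, of the 57 mitosis genes and of the genes tested in 5 other lists; each point is a gene (spread vertically at random within its list), black bars are list medians, the dashed line is the median of all genes tested and the grey band spans their 5th to 95th percentile. The medians of the mitosis, further mitosis and replication lists are 0.70, 0.47 and 0.58, and that of the anaphase-promoting complex subunits, listed with the coactivator Fzr1, is -0.01.

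The subunits of the anaphase-promoting complex itself, which are made throughout the cell cycle, were listed together with its coactivator Fzr1. The median was -0.01 over these 15 genes. Of them 1 rose, Fzr1 (0.45, adjusted p 0.0351), which replaces Cdc20 after anaphase, and 0 fell, so no subunit passed the threshold. Anapc5 was at 67.8 and 68.0 FPKM in CTRL and 68.7 FPKM in both KO libraries (adjusted p 0.847), and Cdc26 had a log2 fold change of -0.09 (adjusted p 0.515), which turned to 0.0268 without KO 1. The MuvB core, whose complexes bind the CHR, and its DREAM partners had a median of 0.06 over the 11 of 12 genes tested, with Mybl1 below the minimum. Tfdp1 rose by 0.31 (adjusted p 0.0423) and E2f5 fell by 0.63 on the log2 scale (adjusted p 0.0450). Their most abundant genes, E2f4 and Rbl2, had log2 fold changes of 0.19 and 0.10 (adjusted p 0.0770 and 0.270). Beside 5.10% higher and 4.65% lower over all genes tested, single calls in lists this short say nothing about the lists.

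The constitutive centromere network, which stays on centromeres through the cell cycle, had a median of 0.30 over 18 genes. Of these 3 rose (Cenpm, Cenpn and Cenps), beside 5.10% of all genes tested. In the other direction 1 fell, beside 4.65% of all genes, so this count is near the share over all genes. The one that fell, Cenpq, was at 15.4 and 13.7 FPKM in CTRL and 8.94 and 7.49 FPKM in KO (log2 fold change -0.76, standard error 0.110, adjusted p 0.0351). Its KO libraries were both well below its CTRL libraries. Cenpx and Mis18a, the most abundant of this list, had log2 fold changes of 0.26 and 0.02 (adjusted p 0.0808 and 0.899), and that of Mis18a turned to -0.11 without CTRL 2 and to -0.0548 without KO 1.

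Markers of other cell types that could be carried along in the sort were read beside these genes. The summed level of myeloid, plasma cell and erythroid markers was higher in replicate 1 than in replicate 2 of both genotypes. The 6 myeloid markers summed to 165 and 103 FPKM in CTRL 1 and CTRL 2 and to 204 and 84.1 FPKM in KO 1 and KO 2. The 5 plasma cell markers read summed to 173, 109, 286 and 94.3 FPKM in the same order. For 6 erythroid markers the sums were 22.8, 4.16, 38.6 and 11.5 FPKM. In each of these lists the genotypes overlapped and none of the genes tested passed the threshold by limma. Igha (77.3 to 239 FPKM) and Jchain (13.6 to 41.0 FPKM), which encode parts of secreted antibody, made up most of the plasma cell sums, while Sdc1 and Tnfrsf17 were at most 0.519 FPKM in any library. The globin genes Hba-a1 and Hba-a2 ran from 1.70 to 18.5 FPKM, and Hbb-bs was listed at 0 in all but KO 1. Of the B cell genes, Cd79b was at 10.9 to 16.0 FPKM, Cd79a at 3.57 to 10.0 FPKM and Ms4a1 at 0.535 to 2.71 FPKM. Cd79a and Ms4a1 were higher in replicate 1 of both genotypes. Of the 57 mitosis genes, 57 were higher in CTRL 1 than in CTRL 2, compared with 53.4% of all genes tested. KO 1 was above KO 2 for 33 of the 57, compared with 46.4% of all genes. The median log2 fold change of the mitosis genes was 0.69 without KO 1. Sums over 5 Treg markers were 1068 and 1137 FPKM in CTRL and 1178 and 1089 FPKM in KO. Of these markers, Foxp3 and Il2ra had both KO libraries below both CTRL libraries, and Ikzf2 had both above. Sums over 4 T cell markers were 1292 and 1333 FPKM in CTRL and lower in KO, at 1177 and 1248 FPKM. None of these Treg and T cell markers passed the threshold by limma. CD8 T cell markers summed to 8.49 to 11.4 FPKM and NK cell markers to 4.26 to 5.33 FPKM. The part of other cells in the difference between CTRL 1 and CTRL 2, or in that between KO and CTRL, was not tested.

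**Figure D5:**
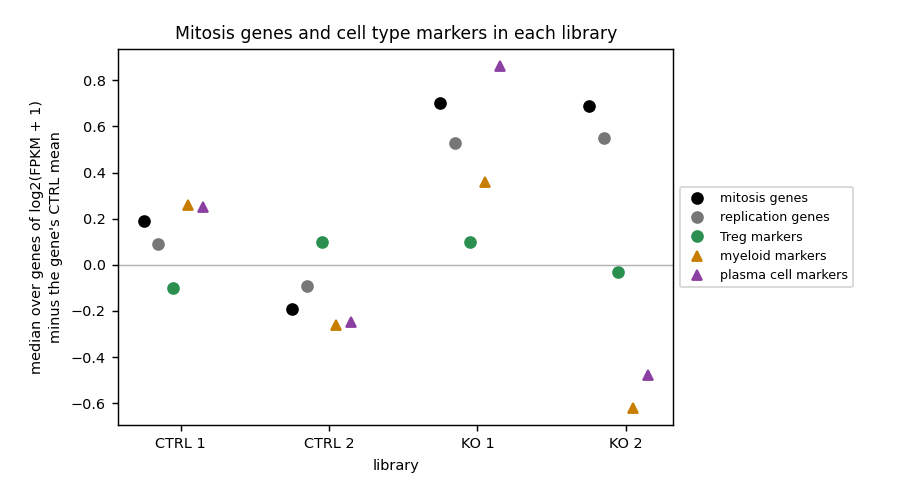
Median over the genes of a list of log2(FPKM + 1) minus each gene's mean over the CTRL libraries, in each of the 4 libraries; circles are mitosis, replication and Treg marker genes, and triangles are myeloid and plasma cell markers. The mitosis genes stand at 0.19, -0.19, 0.70 and 0.69 from CTRL 1 to KO 2, while the myeloid markers stand at 0.26, -0.26, 0.36 and -0.62.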

How the data were processed

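The deposited values were FPKM for 24087 genes in 4 libraries, made by the authors, who per the submitters' processing notes used HISAT2 2.2.1 with mm10 and featureCounts 2.0.1. Gene length, annotation, strand and multi-mapped reads behind the FPKM are not given in the sources used here. The control columns were called WT and were read as the CTRL libraries of the same number.

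KO was compared with CTRL by limma 3.58.1 in R 4.3.3 (lmFit, then eBayes with a trend) on log2(FPKM + 1). The fit covered the 11399 genes at 1 FPKM or more in 2 libraries. Two-sided p-values received Benjamini-Hochberg adjustment over all genes tested and a threshold of 0.05. The scale understates changes of low genes. Whole-number steps gave the least reads behind each value (99.995% of 19888 genes whole within 0.005). Precision was set by 2 libraries per group. The procedure was tested on simulated data in which each gene varied independently between libraries. A shift shared by many genes, as between the CTRL libraries here, was not simulated, so that test does not cover it.

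Members and lists were chosen with earlier results of these data known. Genes given in full were the 3 most abundant of each role, the 3 highest and 3 lowest fold changes, and those whose direction changed without 1 library or whose groups did not separate. For each other list the 2 most abundant were named. Fam83d, Fzr1, Tfdp1, E2f5, Cenpm, Cenpn, Cenps and Cenpq of those lists were named after their values were seen. Positions and overlaps came from GENCODE vM21 (GRCm38). Alternatives were a pseudocount of 0.1, other filters, scalings and variance models, a block, recovered reads, an exon length correction and leaving out each library.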

Additional observations from a re-analysis of the deposited data

How the results depend on the processing

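The 27 higher and 1 lower mitosis genes, and the 43 higher and 2 lower genes of the other lists, depended on the filter and the variance model. Testing all 19888 genes above 0 left 0 in each of these counts, and that setting adds genes to the adjustment and to the trend. Without the variance trend the mitosis genes numbered 15 higher and 0 lower and the other lists 22 higher and 1 lower, and the cause was not tested. Recovered reads are the least whole numbers for each gene and can understate its counts. On them limma-voom called 41 mitosis genes higher. With the exon length trend removed, 0 were lower. With 1 library left out, counts of calls ran from 0 to 0, as fewer libraries enter the fit, and the median log2 fold change of the mitosis genes from 0.48 to 0.91. The labels tie the replicate numbers to no litter or day (Pearson correlation of same-numbered deviations 0.342 across genes, Spearman 0.0553). With the replicate block 45 mitosis genes were higher, among them Bub1b and Mad2l1 of the spindle checkpoint (adjusted p 0.0172 and 0.0203), and Bub1 was at 0.0678. Pttg1 reversed to 0.00420 with median-ratio scaling, and without 1 library it ran from -0.0987 to 0.0602 (without KO 1). Mis18a ran from -0.11 (without CTRL 2) to 0.15 and was -0.0548 without KO 1, and Cdc26 ran from -0.22 to 0.0268 (without KO 1). The direction of 55 mitosis genes was up under each setting that tested all 57, with 56 after median-ratio scaling and without KO 1. Median-ratio scaling moved the share of higher calls over all genes from 52.3% to 60.2%, and the exon length correction to 61.6%.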
